A study of Mus musculus with 11 samples.

Results

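NF-κB is a family of 5 transcription factor subunits, encoded in the mouse by Nfkb1, Nfkb2, Rel, Rela and Relb. These 5 genes, taken by symbol, were followed among the 21957 genes of a table of coding-sequence read counts, and all 5 had at least 1 count in each of its 11 libraries. The cells were primed OT1 cells, which are mouse CD8 T cells carrying a transgenic receptor for an ovalbumin peptide. Stimulated cells had spent 2 h with beads against CD3 and CD28, and unstimulated cells had been kept at rest over that period. All cells, stimulated or not, received cycloheximide, which stalls ribosomes on mRNA, for the last 10 min. RNA was sequenced from 3 stimulated and 3 unstimulated samples, and ribosome-protected fragments (footprints) from 2 stimulated and 3 unstimulated samples. A stimulated footprint replicate 1 was not analysed here. The labels do not say whether replicates were separate cultures or animals, so the p-values measure only the spread between these samples. In bulk samples such as these, fewer cells carrying an RNA and less of it per cell cannot be told apart.

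The subunits pair through a shared Rel homology domain and bind DNA at κB sites. Nfkb1 and Nfkb2 encode the long precursors p105 and p100, which are processed to p50 and p52 and which, unprocessed, hold other subunits in the cytoplasm. Rel, Rela and Relb encode c-Rel, p65 and RelB, the subunits that carry a transactivation domain. In T cells, the T cell receptor and CD28 signal to the IκB kinase, which releases c-Rel and p65 dimers to the nucleus, while RelB with p52 serves the noncanonical route downstream of several TNF receptors. Several of the subunit genes and IκB genes are known to be regulated by NF-κB itself.

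On GRCm38, Nfkb1 (ENSMUSG00000028163) lies at chr3:135584655-135691969, Nfkb2 (ENSMUSG00000025225) at chr19:46300994-46312400, Rel (ENSMUSG00000020275) at chr11:23736847-23770969, Rela (ENSMUSG00000024927) at chr19:5637442-5648134 and Relb (ENSMUSG00000002983) at chr7:19606217-19629438, as RefSeq places the gene spans. Counts of Nfkb2 are less certain than the others, because its span overlaps the protein-coding gene Psd and whether reads were assigned by strand is not given in the sources used here. Psd had 27.1 to 43.6 CPM (counts scaled to a fixed library total) in stimulated RNA and 23.5 to 26 CPM in unstimulated RNA. Rel, Rela and Relb overlapped no other RefSeq gene, and Nfkb1 overlapped only a long noncoding RNA.

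The promoters of Rel and Rela are shown because the first holds a match to the κB consensus, the motif that the subunits themselves bind, and the second holds none. Promoter windows (RefSeq, GRCm38.p6, from 250 bases before to 50 after an annotated start) were at hand for 3 of the 5 genes. The Rel bases printed below stop at the edge of its gene span, whereas the last of the Rela bases lie inside its span. The 250 bases before the start are printed 5′ to 3′ on the gene's strand, at chr11:23770970-23771219 on the minus strand for Rel and chr19:5637291-5637540 on the plus strand for Rela, with κB matches on either strand in capitals.
Rel promoter: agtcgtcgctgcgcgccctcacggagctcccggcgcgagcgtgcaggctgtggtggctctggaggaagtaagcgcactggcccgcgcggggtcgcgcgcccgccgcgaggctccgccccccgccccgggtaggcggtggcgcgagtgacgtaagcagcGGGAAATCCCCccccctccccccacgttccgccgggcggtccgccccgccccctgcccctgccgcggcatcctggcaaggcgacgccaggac
Rela promoter: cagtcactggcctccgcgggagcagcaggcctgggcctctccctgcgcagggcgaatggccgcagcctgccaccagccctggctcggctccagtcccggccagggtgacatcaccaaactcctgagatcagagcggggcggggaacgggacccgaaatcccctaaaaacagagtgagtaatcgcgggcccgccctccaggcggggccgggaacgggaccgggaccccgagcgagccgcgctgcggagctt

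For Nfkb2 3 windows were at hand, and each held at least 1 match, at 4 separate places in all. All 3 windows lay inside the gene span given above, which begins further upstream, so a start at its edge was not covered. They are shown as stretches of 30 bases on the plus strand, at chr19:46304688-46304717, chr19:46304716-46304745, chr19:46305449-46305478 and chr19:46305695-46305724.
Nfkb2 stretch 1: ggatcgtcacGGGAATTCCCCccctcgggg
Nfkb2 stretch 2: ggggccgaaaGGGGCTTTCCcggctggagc
Nfkb2 stretch 3: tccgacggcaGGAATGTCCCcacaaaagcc
Nfkb2 stretch 4: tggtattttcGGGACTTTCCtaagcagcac
The Rel match, an 11-base run in which overlapping matches fall on both strands, lay 92 to 82 bases before the start. The first Nfkb2 match, of the same overlapping kind, lay 39 to 29 bases before the start of the first window, and the second 11 to 2 bases before it. Among all 27025 genes with a window, 5.14% held a match in at least 1 window, and among all 32851 windows 4.51% did. A match is a stretch of letters and shows neither binding nor use in these cells, and the absence of one in the Rela window says only that these letters are not in it.

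Total counts were 21658263 to 28115983 per library in stimulated RNA and 29279903 to 39346699 in unstimulated RNA. Footprint libraries were shallow, with 20848 and 23641 counts in stimulated cells and 11136 to 15237 in unstimulated cells. The RNA libraries did not form 2 clean groups. Gm10800, Gm10801, Gm20594 and Lars2 together took 25%, 22.5% and 12.8% of the counts in stimulated replicates 1, 2 and 3, against 4.09%, 14.9% and 5.14% in unstimulated replicates 1, 2 and 3. Summed RNA of 18 markers of B, myeloid, CD4 and NK cells was 44.6 to 52.4 CPM in stimulated libraries and 25.5 to 40.1 CPM in unstimulated ones, and none of the 18 was at 0 in all RNA libraries. Cd40lg, which activated T cells also express, was the most abundant of them (17.6 CPM in stimulated and 8.34 CPM in unstimulated cells), and without it the sums were 23.9 to 38.4 CPM in stimulated and 16.3 to 33.4 CPM in unstimulated libraries, which overlapped. Together these 18 markers had 6 footprints, against 386 for 7 T cell markers, Cd8a and Cd8b1 among them, whose summed RNA was 1652 to 2643 CPM in stimulated and 2291 to 2592 CPM in unstimulated libraries. The part of this marker difference in the results below was not tested.

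RNA of all 5 subunits averaged higher after stimulation, most for Nfkb1, but whether the increases passed the test depended on the genes, the tool and the libraries that entered the fit. Levels are given as CPM after TMM scaling, which aligns libraries on the bulk of their genes. They compare 1 gene between libraries and not genes with each other, since no coding lengths were at hand.

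Of the precursor genes, Nfkb1 had 695, 816 and 1048 CPM in stimulated replicates 1, 2 and 3, against 537, 470 and 524 CPM in unstimulated replicates 1, 2 and 3. All 3 stimulated values lay above all 3 unstimulated ones, and the stimulated libraries were far more spread out. Nfkb1 averaged 853 ± 179 CPM in stimulated and 510 ± 35.1 CPM in unstimulated cells (SD, n = 3 each), a log2 change of 0.74 ± 0.21 (SE; edgeR adjusted p = 0.0542). Nfkb2 had 317, 398 and 529 CPM in stimulated cells, against 289, 260 and 301 CPM in unstimulated cells. The groups did not overlap, though the lowest stimulated value stood close to the highest unstimulated one. Its log2 change was 0.55 ± 0.22 (SE; edgeR adjusted p = 0.175).

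Of the transactivating subunits, Rel had 206, 258 and 324 CPM in stimulated cells, against 199, 174 and 196 CPM in unstimulated cells, with a log2 change of 0.47 ± 0.21 (SE; edgeR adjusted p = 0.223). The groups were only just separate. Rela had 110, 144 and 188 CPM in stimulated cells, against 112, 104 and 116 CPM in unstimulated cells. Stimulated replicate 1 fell inside the unstimulated range for Rela, and the log2 change was 0.41 ± 0.21 (SE; edgeR adjusted p = 0.288). Relb had 156, 197 and 265 CPM in stimulated cells, against 149, 134 and 162 CPM in unstimulated cells. Here too stimulated replicate 1 lay within the unstimulated range, and the log2 change was 0.47 ± 0.22 (SE; edgeR adjusted p = 0.244).

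**Figure D1:**
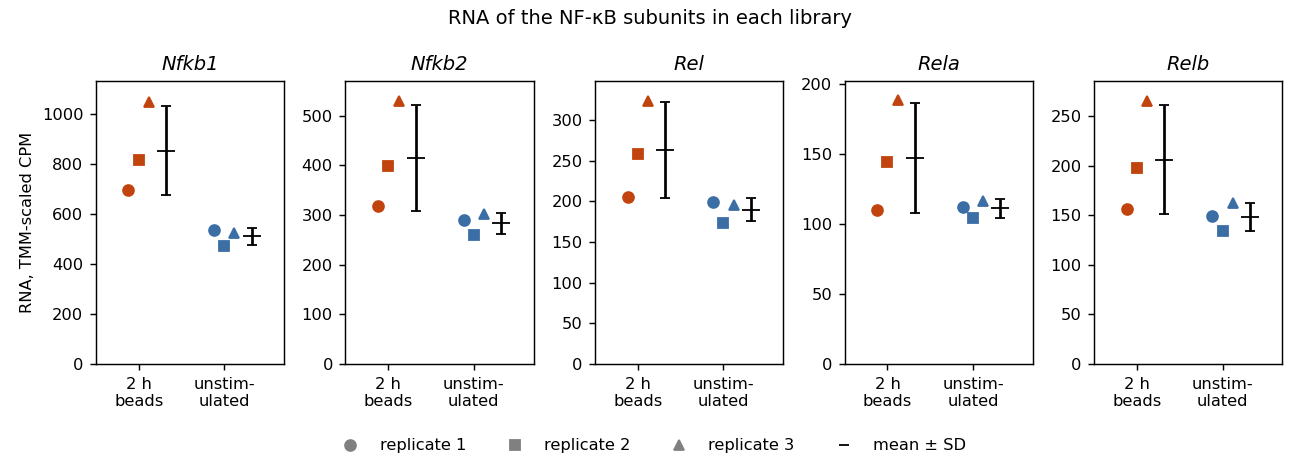
RNA level of each NF-κB subunit in each library, in TMM-scaled CPM on a linear axis that starts at 0, with stimulated libraries at the left and unstimulated ones at the right of each panel; black marks give the mean ± SD (n = 3 each). Stimulated replicate 3 was the highest and stimulated replicate 1 the lowest of the stimulated libraries for every subunit, from 695 to 1048 CPM for Nfkb1.

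With this scaling and edgeR's count filter, 0 of the 5 subunits passed an adjusted p of 0.05, where 3.58% of 18886 genes passed as higher. At an unadjusted p under 0.05 the count was 3 of 5, where 20.6% of genes stood below it in either direction. The limma voom test passed 1 of 5 as higher (Nfkb1), where 9.89% of genes passed. DESeq2 passed 0 of 5, where 355 of 11457 genes passed as higher and 2537 as lower. Groups did not overlap for 3 of 5 subunits (Nfkb1, Nfkb2 and Rel), as for 15.4% of all genes tested. The median log2 change of all 18886 genes was 0.39, near that of the subunits (0.47), whereas the median of the 8494 genes averaging at least 10 CPM was -0.09. Against that second median Nfkb1 was higher by 0.83, Nfkb2 by 0.64, Rel by 0.56, Rela by 0.50 and Relb by 0.57 on the log2 scale, which placed them at the 94.4th, 91st, 89.1st, 87th and 89.2nd percentile of these genes. Over 17 settings of tool, scaling, filter, p threshold and left-out library, the difference from that median ranged from 0.80 to 0.85 for Nfkb1. It was 0.60 to 0.69 for Nfkb2, 0.51 to 0.60 for Rel, 0.45 to 0.57 for Rela and 0.52 to 0.62 for Relb. A change of scaling shifts all genes alike and cancels in this difference, so the narrow ranges do not test the scaling. With all libraries in the fit Nfkb1 stood at 0.83 in every setting. The ends of all 5 ranges came from fits with a library left out. The setting that changed only the p threshold repeated the main fit. The log2 change itself was above 0 in all 17 settings for each subunit, and ranged more widely, from 0.42 to 0.84 for Nfkb1 and from 0.09 to 0.50 for Rela.

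When genes with a mean under 50 counts in both groups were left out, all 5 subunits rose, where 18.1% of 12611 genes passed as higher. Log2 changes were then 0.80 for Nfkb1 (edgeR adjusted p = 0.000359), 0.60 for Nfkb2 (edgeR adjusted p = 0.00431), 0.53 for Rel (edgeR adjusted p = 0.00461), 0.47 for Rela (edgeR adjusted p = 0.0163) and 0.53 for Relb (edgeR adjusted p = 0.011). With the fit restricted to genes of at least 10 CPM, an alternative added after the data were seen, 5 of 5 also rose, where 36.9% of 8494 genes did. Nfkb1 then had 850, 901 and 873 CPM in stimulated replicates 1, 2 and 3, against 500, 478 and 493 CPM in unstimulated replicates 1, 2 and 3. On this scale the stimulated replicates stood close together, and the groups were apart for 5 of 5 subunits, as for 38.0% of those genes. The coefficient of variation over the stimulated libraries was 2.92% for Nfkb1 and 6.11% to 9.15% for the others, where the TMM scaling over all genes gave Nfkb1 179 CPM of SD on a mean of 853. With library totals alone as the scale, Nfkb1 rose by 0.56 (edgeR adjusted p = 0.00817) and was the only subunit to pass, where 5.32% of genes passed as higher.

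Which libraries entered also mattered. Without stimulated replicate 3 Nfkb1 passed at 0.56 (edgeR adjusted p = 0.0133), where 5.05% of genes passed as higher. Without unstimulated replicate 2 it passed at 0.42 (edgeR adjusted p = 0.00661), where 35.6% did, so that 1 of 5 subunits was a smaller share than that of all genes. The other subunits passed in neither fit. Among libraries with a high share of the 4 genes named above (stimulated replicates 1 and 2, unstimulated replicate 2), Nfkb1 differed by 0.87 on the log2 scale when scaled on genes of at least 10 CPM, Rel by 0.60 and Rela by 0.47. Among those with a low share (stimulated replicate 3, unstimulated replicates 1 and 3), the differences were 0.81 for Nfkb1, 0.55 for Rel and 0.55 for Rela. With TMM over all genes the sets stood further apart, at 0.68 (high share) and 0.98 (low share) for Nfkb1, 0.41 and 0.71 for Rel and 0.28 and 0.72 for Rela. Within both sets each subunit was higher in stimulated cells. Each set has a single library on 1 side, and the share of all genes higher in both sets was not computed.

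**Figure D2:**
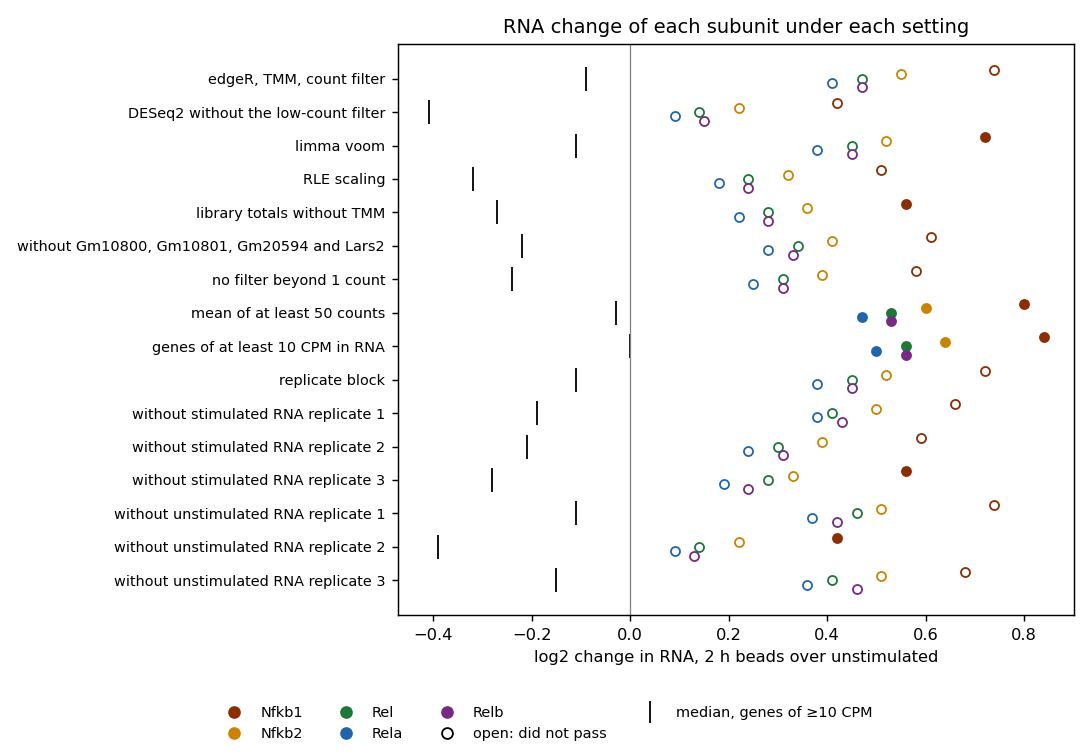
Log2 change in RNA (stimulated over unstimulated) of each subunit under each setting; filled points passed the adjusted p threshold, open points did not, and the black tick is the median of genes of at least 10 CPM. Every point lies above 0 and to the right of its tick, and all 5 points are filled only with the filter at a mean of 50 counts and with genes of at least 10 CPM.

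Ratios between 2 subunits in the same library need no scaling. Nfkb1 counts over Rela counts were 6.33, 5.66 and 5.56 in stimulated replicates 1, 2 and 3, against 4.78, 4.54 and 4.5 in unstimulated replicates 1, 2 and 3. Nfkb1 over Rel was 3.37, 3.16 and 3.23 in stimulated libraries, against 2.69, 2.71 and 2.68 in unstimulated ones. Both ratios were higher in every stimulated library than in any unstimulated one, by 0.34 and 0.27 on the log2 scale.

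The ratio to Relb was higher by 0.28 and that to Nfkb2 by 0.20 on the log2 scale, again without overlap. Nfkb2 over Rel, over Rela and over Relb was higher in stimulated libraries by 0.07 to 0.14 on the log2 scale, also without overlap, though the lowest stimulated and the highest unstimulated value of Nfkb2 over Rel both rounded to 1.54. In all, 7 of 10 ratios did not overlap, a share close to that of all 36069771 pairs of genes of at least 10 CPM, of which 76.5% did not overlap between the groups. Ratios among Rel, Rela and Relb overlapped. The exact permutation test (two-sided) gave p = 0.1 for each ratio without overlap, the smallest that 3 against 3 libraries allow, and 0.143 after adjustment over the 10 ratios. Of the counts of the 5 genes together, Nfkb1 took 45.4 ± 1.22% in stimulated and 41.1 ± 0.714% in unstimulated libraries (SD, n = 3 each), and the shares of the others were lower in stimulated libraries by 0.88 to 1.30 points (exact permutation p = 0.1 each). Shares of counts favour long coding sequences and are not shares of molecules.

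**Figure D3:**
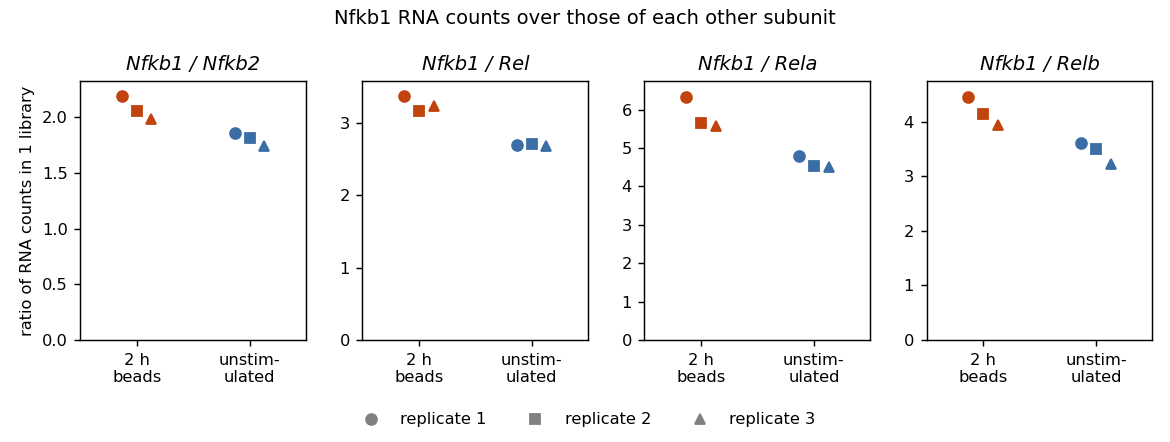
Nfkb1 RNA counts divided by those of each other subunit within a library, on linear axes that start at 0, with stimulated libraries at the left of each panel. In all 4 panels the 3 stimulated libraries lie above the 3 unstimulated ones, at 5.56 to 6.33 against 4.5 to 4.78 for the ratio to Rela.

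Genes whose RNA pattern was most like that of each subunit were sought among 8492 genes of at least 10 CPM, by the root mean square difference of centred log2 levels over the 6 RNA libraries. The 3 nearest to Nfkb1 were Tsr2, Txnrd1 and M6pr, at differences of 0.018 to 0.025. Nfkb2 was nearest to Usp36, Tmem201 and Rrp7a, Rel to Fam208b, Sla and Ddx54, Rela to Slc10a3, Gnl1 and Ptpmt1, and Relb to Mrps28, Gfi1 and Med11, at 0.017 to 0.027. Nfkb2 and Relb (0.044) and Rela and Relb (0.048) were the closest pairs among the subunits, and Nfkb1 lay 0.11 to 0.18 from the other 4. Even so, 49 genes lay closer to Nfkb2 than Relb did, and 26 closer to Relb than Nfkb2 did. For Rela and Relb the number was 32 either way, and 445 genes lay closer to Nfkb1 than Nfkb2, its nearest subunit. These distances describe 6 libraries that share the scaling and the spread between replicates.

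The subunits had few footprints, 97 of 44489 in stimulated and 55 of 40944 in unstimulated cells. Nfkb1 had 10 and 16 in stimulated replicates 2 and 3, against 4, 3 and 3 in unstimulated replicates 1, 2 and 3. Both stimulated libraries exceeded all 3 unstimulated ones, also after scaling. Pooled over libraries, the ratio of stimulated to unstimulated footprints per total was 2.39 (exact Poisson 95% interval 1.12 to 5.56) for Nfkb1.

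Rel had 15 and 13 footprints in stimulated cells, against 4, 9 and 4 in unstimulated cells, a pooled ratio of 1.52 (0.801 to 2.95). Relb had 13 and 7 against 4, 2 and 4, a ratio of 1.84 (0.822 to 4.4). Nfkb2 had 7 and 9 in stimulated cells, against 1, 5 and 6 in unstimulated cells, and Rela had 4 and 3 against 3, 1 and 2, with ratios of 1.23 (0.545 to 2.84) and 1.07 (0.309 to 3.87). Every one of these 4 intervals included 1. The intervals cover counting error only, and not the spread between libraries.

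No subunit passed edgeR's count filter for footprints, so the test was made with a filter at a mean of 5 counts in either group, which 4 of 5 subunits passed and Rela did not. Of these, 0 changed where 1.59% of 1131 genes did by edgeR, and 0 did at an unadjusted p under 0.05, by limma voom or by DESeq2, which gave an adjusted p for 3 of them. The log2 change was 0.99 ± 0.75 for Nfkb1 (SE; edgeR adjusted p = 0.649), 0.12 ± 0.83 for Nfkb2, 0.38 ± 0.63 for Rel and 0.64 ± 0.82 for Relb. Only Nfkb1 had both stimulated libraries above all unstimulated ones, as did 17.2% of the genes tested. Each of these SEs was larger than the log2 change of the same gene in RNA with edgeR's count filter, so changes of that size could be missed. The power to detect them was not computed.

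**Figure D4:**
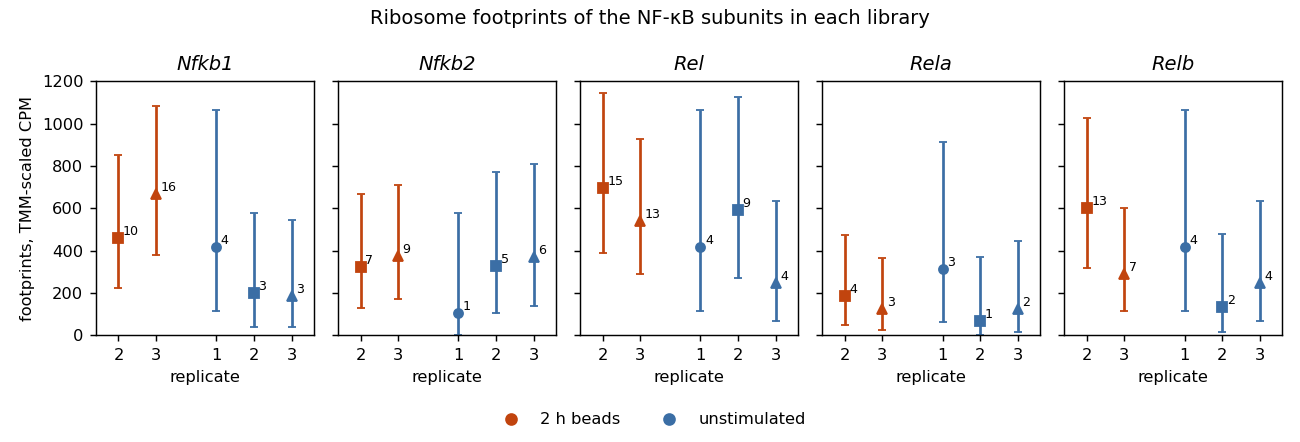
Footprint level of each subunit in each library, in TMM-scaled CPM on a shared linear axis that starts at 0, with stimulated libraries at the left; bars are exact Poisson 95% intervals and the number beside each point is the footprint count. The 2 stimulated libraries of Nfkb1 hold 10 and 16 footprints and those of Rela 4 and 3, and the intervals overlap between groups in every panel.

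Translational efficiency, the change in footprints beyond the change in RNA, could be fitted for the same 4 subunits and changed for 0 of them, with 0% of 1129 genes called by edgeR. At an unadjusted p under 0.05 the count was 178 genes and 0 subunits, and limma voom called 25 genes and DESeq2 31 genes, no subunit among them. The log2 change in efficiency was 0.24 ± 0.47 for Nfkb1, -0.53 ± 0.55 for Nfkb2, -0.15 ± 0.45 for Rel and 0.14 ± 0.65 for Relb (SE). The sign of the Nfkb1, Rel and Relb values turned under at least 1 alternative.

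Within either state, footprints per RNA were highest for Rel and lowest for Nfkb1. Pooled footprint CPM over pooled RNA CPM gave 2.55 for Rel in stimulated cells (exact Poisson 95% interval 1.69 to 3.68) and 2.04 in unstimulated cells (1.19 to 3.27). For Nfkb1 the same quantity was 0.729 in stimulated cells (0.476 to 1.07) and 0.447 in unstimulated cells (0.214 to 0.822). The intervals of Rel and Nfkb1 did not overlap in either state.

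Relb stood at 2.32 in stimulated cells (1.42 to 3.58) and 1.54 in unstimulated cells (0.737 to 2.82). Nfkb2 had 0.922 in stimulated and 0.966 in unstimulated cells, and Rela 1.13 in stimulated and 1.24 in unstimulated cells. The intervals of Nfkb2, Rela and Relb overlapped in both states, as did those of Nfkb1 with Nfkb2 and with Rela. The interval of Rel overlapped those of Relb and Rela in both states, so Rel was not set apart from them as the highest. Which part of a transcript was counted as coding in the RNA cannot be checked here, and a gene's length enters the quantity unless both counts cover the same bases.

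In the joint edgeR fit of both assays, Rel had more footprints than RNA by 1.11 ± 0.31 on the log2 scale in stimulated cells (SE; edgeR adjusted p = 0.00852) and by 1.26 ± 0.40 in unstimulated cells (SE; edgeR adjusted p = 0.0225). Nfkb1 had fewer, at -0.70 ± 0.23 in stimulated cells (SE; edgeR adjusted p = 0.0227) and -0.94 ± 0.36 in unstimulated cells (SE; edgeR adjusted p = 0.0595). These calls, 2 of 4 subunits in stimulated and 1 of 4 in unstimulated cells, stand where 46.6% and 34.1% of 1129 genes were called, and genes entered this fit partly through their footprints. The median of all 1129 genes was itself 0.88 in stimulated and 0.70 in unstimulated cells, so Rel stood less far from the typical gene than from 0. Of the genes called, 475 were higher and 51 lower in stimulated cells, and 338 higher and 47 lower in unstimulated cells. The Nfkb1 call in stimulated cells was lost with DESeq2 (adjusted p = 0.174), limma voom (adjusted p = 0.107) and library totals (edgeR adjusted p = 0.27), and the Rel call in unstimulated cells with library totals (edgeR adjusted p = 0.0815). Over 20 alternatives the Rel call was lost in 2 for stimulated and in 6 for unstimulated cells, its value staying at 0.78 to 1.39 and 0.81 to 1.56, and the Nfkb1 call in stimulated cells was lost in 8, at -1.16 to -0.42.

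Ratios between 2 subunits within a library are free of that scaling as well. Rel counts over Nfkb1 counts were 1.5 and 0.812 in stimulated footprint libraries and 1, 3 and 1.33 in unstimulated footprint libraries, against 0.296 to 0.374 in the 6 RNA libraries. Relb over Nfkb1 was 0.438 to 1.33 in the 5 footprint libraries, against 0.224 to 0.309 in the RNA libraries. In both cases every footprint library exceeded every RNA library.

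The differences, footprints minus RNA, were 2.02 for Rel over Nfkb1 and 1.73 for Relb over Nfkb1 on the log2 scale (exact permutation p = 0.00216 each, two-sided, adjusted p = 0.0108 over 10 ratios, n = 5 and 6). That p is the smallest that 5 footprint and 6 RNA libraries allow. In all, 6 of 10 ratios passed, and the same 6 stood at an unadjusted p under 0.05, where 51.3% of the 783126 pairs of the 1252 genes with a count in every library did. No overlap was found for 2 of 10 ratios, against 32.7% of those pairs. The 6 included Rela over Nfkb1 at 1.11 (exact permutation adjusted p = 0.0216), Rel over Nfkb2 at 1.39 (exact permutation adjusted p = 0.0216), Relb over Nfkb2 at 1.10 (exact permutation adjusted p = 0.0361) and Relb over Rela at 0.62 (exact permutation adjusted p = 0.0216). Leaving out any 1 library kept the p of Rel over Nfkb1 at 0.00476 to 0.00794 and its difference at 1.74 to 2.21, whereas the unadjusted p of Relb over Nfkb2 reached 0.0714. Footprint ratios rest on as few as 1 to 16 counts a gene, and the test pools both states and treats the 11 libraries as independent. With footprint and RNA libraries of 1 state and 1 replicate number taken as 5 pairs, Rel over Nfkb1 was higher in footprints in 5 of 5, by 1.99 ± 0.68 (SD, n = 5; exact sign-flip p = 0.0625, the smallest that 5 pairs allow). The same p was reached by Rela and Relb over Nfkb1, Rel over Nfkb2 and Relb over Rela, while Relb over Nfkb2 was higher in 4 of 5 (exact sign-flip p = 0.188). The labels give these numbers without saying that both libraries came from 1 culture. Nfkb2 over Nfkb1 differed by 0.63 (exact permutation adjusted p = 0.344).

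**Figure D5:**
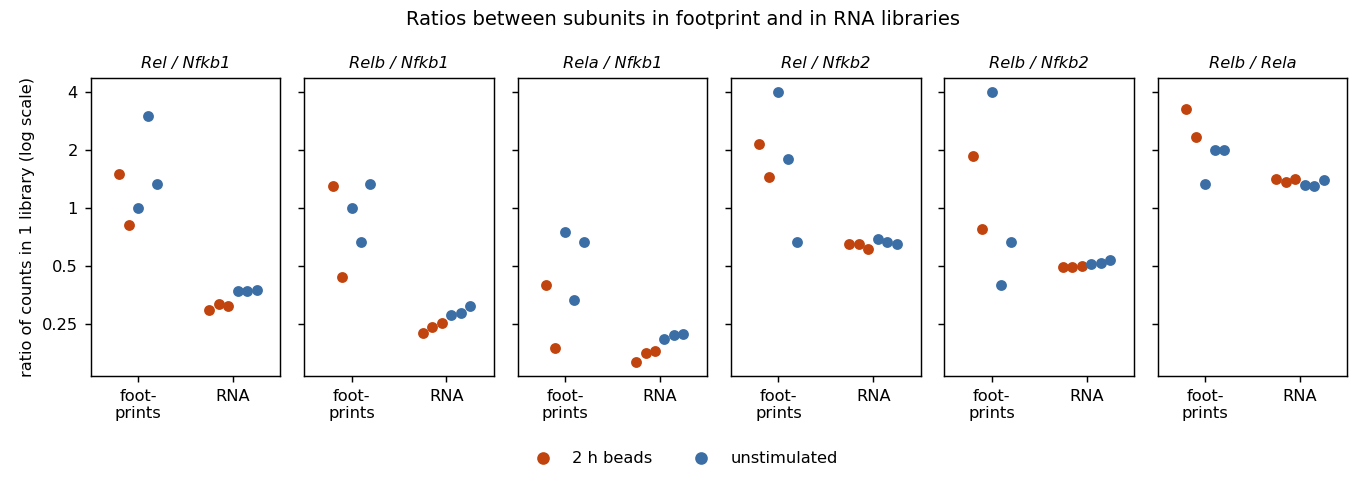
Ratios of counts between 2 subunits within a library, for the 6 ratios that passed the exact permutation test, on a shared log axis; footprint libraries are at the left and RNA libraries at the right of each panel, coloured by state. The ratio of Rel to Nfkb1 was 0.812 to 3 in footprint libraries and 0.296 to 0.374 in RNA libraries, and only the ratios of Rel and Relb to Nfkb1 are free of overlap.

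Other genes of the pathway, 71 in 7 lists, showed how the RNA around the subunits stood. By edgeR with the count filter 22 were higher and 2 lower, where 3.58% of all genes were higher and 4.68% lower. With the filter at 50 counts 33 were higher and 12 lower of 70, where 18.1% of all genes were higher and 21.0% lower. With genes of at least 10 CPM 39 were higher and 16 lower of 67, where 36.9% of all genes were higher and 36.4% lower. Of 15 genes known as NF-κB targets in T cells, 14 rose and none fell, and 13 to 15 rose when 1 library was left out. Their median log2 change was 2.10, against 0.39 over all genes tested. This list, like the others, was chosen with earlier results of these data known, so its increase is no independent test. The largest increases were those of the T cell growth factor Il2 (log2 change 5.89; edgeR adjusted p = 4.29e-07), the growth factor Csf2 (5.88; edgeR adjusted p = 1.62e-07) and the inflammatory cytokine Tnf (2.93; edgeR adjusted p = 3.33e-05). Icam1, an adhesion molecule, was the gene that did not pass, at 0.73 (edgeR adjusted p = 0.0724).

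Among the 6 inhibitors and their relatives, 3 rose and none fell, whereas 5 rose and 1 fell with the fit restricted to genes of at least 10 CPM. Nfkbid, a nuclear IκB protein, averaged 757 CPM in stimulated and 143 CPM in unstimulated cells (log2 change 2.40; edgeR adjusted p = 0.000108), and its footprints numbered 60 in stimulated and 5 in unstimulated cells. Nfkbiz, another nuclear IκB, rose by 1.55 (edgeR adjusted p = 0.00181) and Nfkbib, which retains dimers in the cytoplasm, by 1.02 (edgeR adjusted p = 0.00696). Nfkbia, the classical cytoplasmic inhibitor, was at 0.68 (edgeR adjusted p = 0.106). Without 1 of the 6 libraries the Nfkbib call was lost once, at an edgeR adjusted p of 0.1.

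Of 9 receptors of the noncanonical route, 3 rose and none fell, whereas 1 of 8 fell with the filter at 50 counts (Tnfrsf1b, a TNF receptor, by 0.43; edgeR adjusted p = 0.0168) and 2 of 5 among genes of at least 10 CPM. Tnfrsf4 (OX40) rose by 2.02 (edgeR adjusted p = 9.93e-05), Tnfrsf9 (4-1BB) by 1.64 (edgeR adjusted p = 0.00127) and Tnfrsf18 (GITR) by 0.76 (edgeR adjusted p = 0.0487). Of 10 genes of the IKK complex and related kinases none rose and 1 fell, Ikbke at -0.71 (edgeR adjusted p = 0.0458), an IKK-related kinase. Of 9 genes between the T cell receptor and IKK, Traf6, a ubiquitin ligase, rose (279 CPM in stimulated and 140 CPM in unstimulated cells; edgeR adjusted p = 0.0121). Of 12 TRAF and deubiquitinase regulators only Tnip2, which binds A20, rose, by 0.83 (edgeR adjusted p = 0.0147), and of 10 nuclear cofactors none passed, Crebbp, a histone acetyltransferase, standing at -0.35 (edgeR adjusted p = 0.293). With 1 library left out, up to 2 of the receptors, 7 of the 10 kinases, 6 of the 12 regulators and 8 of the 10 cofactors fell, each maximum in the fit without unstimulated replicate 2. In that fit 6173 of all 19219 genes tested were also called lower. The Tnfrsf18 and Ikbke calls were lost in 4 and the Traf6 and Tnip2 calls in 3 of the 6 fits with 1 library left out, with edgeR adjusted p-values up to 0.355.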

How the data were processed

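Coding-sequence counts per gene in 11 libraries were taken as the authors deposited them: whole numbers, not normalized. The submitters' processing notes name STAR 2.5 as aligner and mm10 (GRCm38) as genome build; the counter, annotation and strand setting are not given in the sources used here. All 241527 counts deposited per library equalled those of the series table. Symbols were found for 21838 of 21957 identifiers. Groups came from the sample labels. Stimulated and unstimulated libraries were compared with edgeR 4.0.16 (quasi-likelihood test, TMM, filterByExpr at a minimum count of 10 and total of 15, Benjamini-Hochberg adjustment) in R 4.3.3, each assay by itself and, for efficiency and footprints over RNA, both in 1 model with an interaction. The filter kept no subunit for footprints, so a filter at a mean of 50 RNA or 5 footprint counts served there. DESeq2 1.42.0, limma 3.58.1 (voom), other scalings, filters and left-out libraries were alternatives. Ratios within libraries, genes of at least 10 CPM and libraries of like share of Gm10800, Gm10801, Gm20594 and Lars2 were added after the data were seen. Scripts were tested on simulated data. Named were the 5 subunits, from each list up to 3 passing genes with the largest RNA change or else the gene of highest level, and 3 genes nearest each subunit; Icam1, Nfkbia and Tnfrsf1b were named after their values were seen. The subunits and lists were chosen with earlier results of these data known. Shares per coding length were not computed, since no lengths were at hand. A gene of the pathway lists is not reported here.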

Additional observations from a re-analysis of the deposited data

How the results depend on the processing

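Signs of the subunits' RNA changes held in every alternative, but calls did not. Genes called in RNA numbered 1560 (43.4% higher), against 2892 with DESeq2 (12.3% higher), 3387 with limma voom (55.1%), 1698 with RLE scaling (19.7%), 5220 with library totals (19.3%), 1676 without Gm10800, Gm10801, Gm20594 and Lars2 (31.3%), 4932 with a filter at a mean of 50 counts, 628 at an adjusted p of 0.01 and 6228 among genes of at least 10 CPM. Subunits called numbered 0 of 5, against 1 with limma voom (Nfkb1 at 0.72) and with library totals (Nfkb1 at 0.56), and 5 with the filter at 50 counts (0.80 for Nfkb1, 0.60 for Nfkb2, 0.53 for Rel, 0.47 for Rela and 0.53 for Relb) and among genes of at least 10 CPM (0.84, 0.64, 0.56, 0.50 and 0.56 in the same order). Leaving out 1 library gave 583 to 13024 RNA calls (the most without unstimulated replicate 2), 0 to 1 subunits and 0.42 to 0.74 for Nfkb1. The cause was not tested.

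Whether replicate numbers pair the samples could not be decided from the counts. Deviations of same-numbered RNA libraries correlated at -0.788, 0.64 and 0.726 for replicates 1, 2 and 3. Stimulated replicate 1 correlated best with unstimulated replicate 2 (0.863), and both were among the libraries described above as having a high share. Deviations within a group constrain each other, so these correlations neither show nor exclude pairing. Footprint libraries correlated near 0. Stimulated footprint replicates 2 and 3 gave values of equal size and opposite sign, as deviations in so small a group must. With a replicate block 2404 genes and 0 of 5 subunits were called in RNA, and the footprint change of Nfkb2 turned to -0.23.

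Footprint calls numbered 24 with edgeR's count filter, 11 with no filter beyond 1 count, 15 among genes of at least 10 CPM and 12 to 30 with 1 library left out. Efficiency calls numbered 8, against 31 with DESeq2, 15 with library totals, 4 with no filter beyond 1 count, 0 with limma voom, the lower filter, an adjusted p of 0.01 or genes of at least 10 CPM, and 0 to 9 with 1 library left out. For footprints over RNA, edgeR's count filter kept no subunit with all libraries, and 0 or 1 with 1 library left out. Its counts of subunits called, 0 with all libraries and 0 to 1 with 1 left out, were bounded by that filter in both states. In stimulated cells it called 171 of 255 genes. DESeq2 called 2617 of 10634 genes and 2 subunits (Rel and Relb higher). With no filter beyond 1 count 1180 of 10636 genes and 1 subunit (Rel higher) were called. The lower filter gave 526 of 1129 genes and 2 subunits (Rel higher, Nfkb1 lower). Genes of at least 10 CPM gave 946 of 7151 and 2 subunits (Rel and Relb higher). In unstimulated cells 171 of 255 genes were called with edgeR's count filter. DESeq2 called 4261 of 10634 genes and 2 subunits (Rel higher, Nfkb1 lower). With no filter beyond 1 count 1276 of 10636 genes and no subunit were called. The lower filter gave 385 of 1129 genes and 1 subunit (Rel higher), and genes of at least 10 CPM 752 of 7151 and no subunit.

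Signs turned for values that had not passed. The efficiency change of Rel was 0.17 with DESeq2, 0.32 with library totals, 0.31 with no filter beyond 1 count and 0.19 among genes of at least 10 CPM, that of Relb was -0.03 with limma voom, and footprints over RNA of Nfkb2 in unstimulated cells were -0.04 with library totals, -0.05 without the 4 genes and -0.00 with no filter beyond 1 count. With 1 library left out, the footprint change was -0.20 to 0.45 for Nfkb2 and -0.10 to 1.0 for Relb, the efficiency change -0.24 to 0.56 for Nfkb1, -0.47 to 0.33 for Rel and -0.60 to 0.46 for Relb, and footprints over RNA of Nfkb2 in unstimulated cells -0.13 to 0.51. The cause of these turns was not tested. Shares by transcript length were not run.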
